A study of Mus musculus with 16 samples.

Results

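Loss of both Daxx and Men1 was compared with the wild type in whole pancreas after repeated injury, using 4 DMC and 4 WT libraries, 8 of the 16 libraries of the study. DMC mice carried Daxx fl/fl, Men1 fl/fl and the Pdx1-Cre transgene (Daxxfl/flMen1fl/flPdx1-CreTg), so both floxed genes were targets of the same Cre. MC mice (Men1fl/flPdx1-CreTg) and DC mice (Daxxfl/flPdx1-CreTg), 4 of each, were used beside the main comparison, and WT mice were wild type. The WT label names no Cre, so effects of Cre itself and of the floxed genes cannot be told apart. All 16 adult mice, 6 to 10 weeks old, WT included, had received caerulein at 50 ug/kg given as 4 hourly intraperitoneal injections, 3 times a week over 3 weeks, and the pancreas was taken 5 days after the final dose. The labels call the 4 animals of a genotype independent biological replicates. Strand-specific libraries of total RNA held 18968266 to 22473478 reads counted to genes in DMC and 16571431 to 23518430 in WT. Values are the authors' normalized counts, reads divided by a size factor for each library, and all 4 values of a group are given in the order of replicates 1 to 4. A log2 difference is DMC minus WT on the scale of log2(normalized count + 1), with its standard error (SE), and genes were called at an adjusted p under 0.05 in limma across 14220 genes.

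Caerulein is an analogue of cholecystokinin, the gut hormone that makes acinar cells release digestive enzymes, and repeated doses injure those cells. Daxx is a chaperone that deposits a replacement variant of histone H3 together with Atrx. Menin, the product of Men1, is a scaffold of chromatin complexes that include the MLL histone methyltransferases and is a tumour suppressor of endocrine tissues. Pdx1-Cre is active in the epithelial progenitors that give rise to acinar, duct and endocrine cells of the pancreas, and Pdx1 is also expressed in the distal stomach and duodenum. Blood vessels, fibroblasts and leukocytes are outside that lineage, so a whole pancreas keeps many cells with intact floxed genes. In such bulk RNA, fewer cells of a type and less RNA per cell cannot be told apart.

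The pancreas label was checked on acinar enzymes: the summed normalized count of 34 such genes was 7620800 to 15624341 in DMC and 10984438 to 20580811 in WT. The 10 most abundant genes took 36.9 to 45.1% of reads in DMC and 42.6 to 51.8% in WT. The libraries differed within each genotype in 2 further ways. Y-linked transcripts (mean log2 level of 4 genes) were high in DMC replicates 1 and 3 (9.40 and 9.14) and WT replicates 1 and 2 (9.48 and 9.38), against 1.88 and 0.47 in DMC replicates 2 and 4 and 0.22 and 0 in WT replicates 3 and 4. Each group thus held 2 Y-high and 2 Y-low libraries, and differences are also given within those classes. Transcripts of T, NK, B and plasma cells (mean log2 level of 28 genes) were at 5.59, 6.93, 4.79 and 3.76 in DMC, against 3.45, 7.45, 8.09 and 5.37 in WT, with the widest spread in WT.

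Men1 RNA was reduced in every DMC pancreas, and Daxx RNA was lower on average with groups that overlapped. Men1 (ENSMUSG00000024947.16, chr19:6334979-6340891, GRCm38) stood at 157, 175, 161 and 178 normalized counts in DMC, against 331, 345, 459 and 336 in WT. The lowest WT library was above the highest DMC library, and the DMC mean was 45.6% of the WT mean. The log2 difference was -1.12 ± 0.13 (adjusted p = 0.000713 in limma). A two-sided exact permutation test gave p = 0.0286, the lowest value possible with 70 assignments. Daxx (ENSMUSG00000002307.15, chr17:33909414-33915590) had 160.3, 225, 179 and 162 normalized counts in DMC, against 232, 278, 346 and 195 in WT. WT replicate 4 lay within the DMC range, and the log2 difference of -0.51 ± 0.16 did not pass (adjusted p = 0.193 in limma; exact permutation p = 0.0571, two-sided). Only with library quality weights in limma was Daxx called (-0.62, adjusted p = 0.0432). The counts are summed over each gene, so they do not show which exons the remaining reads came from. The closest partners were not called: Atrx, which recruits Daxx to chromatin, averaged 2675 ± 322 normalized counts in DMC and 2659 ± 202 in WT (SD, n = 4 each), and H3f3b, which encodes the deposited histone variant, 2868 ± 339.7 in DMC and 2960.0 ± 268 in WT. Among 14 menin and MLL complex genes only Men1 was called. Among 18 genes of Daxx, Atrx and histone deposition none was called by limma, edgeR or DESeq2. At an unadjusted p under 0.05, 1 of these 18 was lower, and Daxx itself had an unadjusted p of 0.00627 (limma).

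Across all genes, more transcripts were called higher than lower in DMC. Of 14220 genes tested, 84 were called higher (0.591%) and 28 lower (0.197%), 112 in all (0.788%). All 112 were protein coding, but the share of protein-coding genes among all genes tested was not computed. In each of the 112 the DMC and WT libraries did not overlap. By comparison, 5.19% of all genes had DMC libraries all above WT and 3.02% all below, and 8.43% were higher and 4.11% lower at an unadjusted p under 0.05. The median log2 difference was 2.18 among genes called higher and -1.12 among genes called lower, against -0.018 over all genes, of which 47.3% were positive. Since their DMC and WT libraries did not overlap, all 112 were bound to have the same sign within the Y-high and the Y-low libraries. Of the 84, which were called on these same libraries, 69 exceeded a log2 difference of 1 in both. The difference between the classes itself was called for 2 genes (0.0141%). The number of calls depended on single libraries. In all, 17 genes were called without DMC replicate 4, 33 without DMC replicate 2, 50 without DMC replicate 1 and 99 without DMC replicate 3. Dropping WT replicate 1 gave 83, WT replicate 2 gave 73, WT replicate 3 gave 32 and WT replicate 4 gave 36. Dropping DC replicate 1 gave 183; that library enters only the estimate of spread. Within 10 Mb of the targeted genes, themselves left out, 2 of 229 genes tested were called near Men1 and 0 of 328 near Daxx. The calls near Men1 were Pga5 and Gif, both described below with the stomach gland genes.

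**Figure D1:**
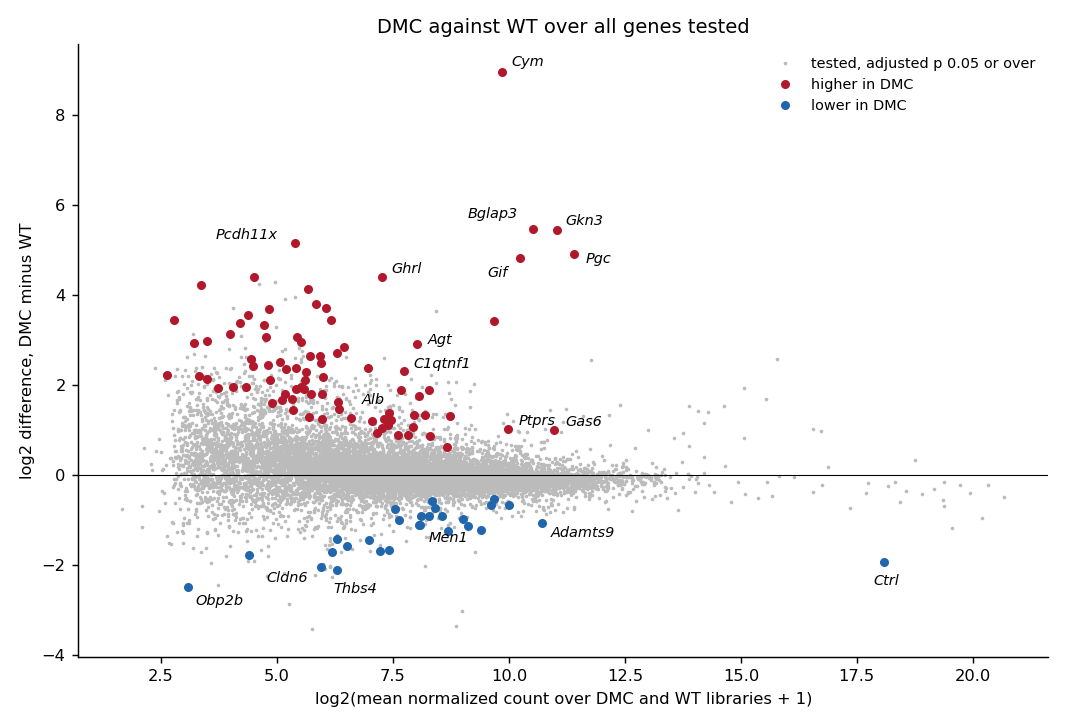
Each point is 1 of the 14220 genes tested, with the log2 of its mean normalized count plus 1 over the 8 DMC and WT libraries on the x axis and the log2 difference, DMC minus WT, on the y axis. The 84 genes called higher are red and the 28 called lower are blue; Cym lies highest at 8.96, and Ctrl stands far to the right as the most abundant gene called.

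The plot of all genes shows the calls higher in DMC spread over low and middling levels, with Cym, Gkn3, Pgc, Gif and Bglap3 apart at high level and large difference. Ctrl is the only call at the right edge.

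The steadiest differences were in Bglap3, Pcdh11x, Agt, C1qtnf1, Alb, Cym and Men1, the 7 genes called under each of 32 ways of processing the data and leaving out libraries. With every DMC and WT library left out in turn, the calls of 17 genes held, adding Tro, Azgp1, Wfdc15b, Cobl, Cyp2j5, Gli1, Cldn6, Rftn2, Zc3h12b and Parm1. Bglap3 (ENSMUSG00000074489.9, chr3:88368616-88372743), a gene of the osteocalcin family, whose best known member is a hormone-like protein of bone, had 1770.4, 2010.3, 4394 and 3289 normalized counts in DMC, against 99, 53.3, 62.8 and 37.3 in WT. Every DMC library was far above every WT library. The log2 difference was 5.47 ± 0.39 (adjusted p = 3.54e-06, limma). The Y-low and Y-high classes gave 5.70 and 5.24. Bglap and Bglap2, near-identical neighbours of Bglap3, were not analysed here, so reads shared among them make the source copy uncertain. Of the other osteoblast genes tested, Runx2, Mgp and Alpl were not called, at -0.43, 0.04 and 0.01. Agt (chr8:124556534-124569706) encodes angiotensinogen, the precursor of the angiotensin peptides. Its level was 343, 286, 823 and 376 normalized counts in DMC, against 68.9, 59.7, 52.2 and 40.6 in WT, highest in DMC replicate 3, with no overlap. Agt differed by 2.92 ± 0.34 (adjusted p = 0.000713, limma). C1qtnf1, a secreted relative of complement C1q, had 293, 269, 492 and 370.1 normalized counts in DMC, against 60.1, 65.1, 67.7 and 85.6 in WT. Again the groups stood apart (2.31 ± 0.29, adjusted p = 0.00134, limma). Pcdh11x, an X-linked protocadherin of cell adhesion, was at 71.9, 63.6, 84.9 and 96.9 normalized counts in DMC, against 0, 5.42, 0.816 and 1.10 in WT. WT replicates 1, 3 and 4 lay under the level of 3 reads (2.45 to 5.30 normalized counts in WT, counting error only) and WT replicate 2 above it, and the DMC values were far higher, with similar differences of 5.35 in Y-low and 4.96 in Y-high libraries.

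The windows before and around the starts of Bglap3 and Agt are shown because both genes were called in every setting. They run from 250 bases before to 50 bases after the RefSeq start (GRCm38.p6), chr3:88372692-88372991 and chr8:124569657-124569956, both read on the minus strand. Capitals mark TATAAA, searched on both strands as a core promoter motif; 13.6% of all 32851 RefSeq windows of this length hold it.
Bglap3: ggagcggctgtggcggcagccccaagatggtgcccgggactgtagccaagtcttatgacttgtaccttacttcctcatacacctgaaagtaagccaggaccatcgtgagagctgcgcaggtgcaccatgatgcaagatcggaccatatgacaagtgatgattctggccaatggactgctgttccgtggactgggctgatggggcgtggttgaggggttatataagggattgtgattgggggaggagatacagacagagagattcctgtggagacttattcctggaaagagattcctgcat
Agt: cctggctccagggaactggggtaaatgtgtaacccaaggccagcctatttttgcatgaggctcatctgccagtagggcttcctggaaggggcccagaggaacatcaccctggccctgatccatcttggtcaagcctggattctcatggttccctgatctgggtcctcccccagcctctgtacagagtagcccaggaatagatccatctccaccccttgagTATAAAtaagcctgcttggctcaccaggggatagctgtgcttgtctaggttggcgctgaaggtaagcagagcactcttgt
Agt holds TATAAA with its first base 30 bases before the start, and the Bglap3 window does not hold those exact letters. Variants of the motif were not searched for. Of the 84 genes called higher, 66 had a window and 15 of these (22.7%) held TATAAA in at least 1, against 15.7% of all genes with a window, a description only.

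**Figure D2:**
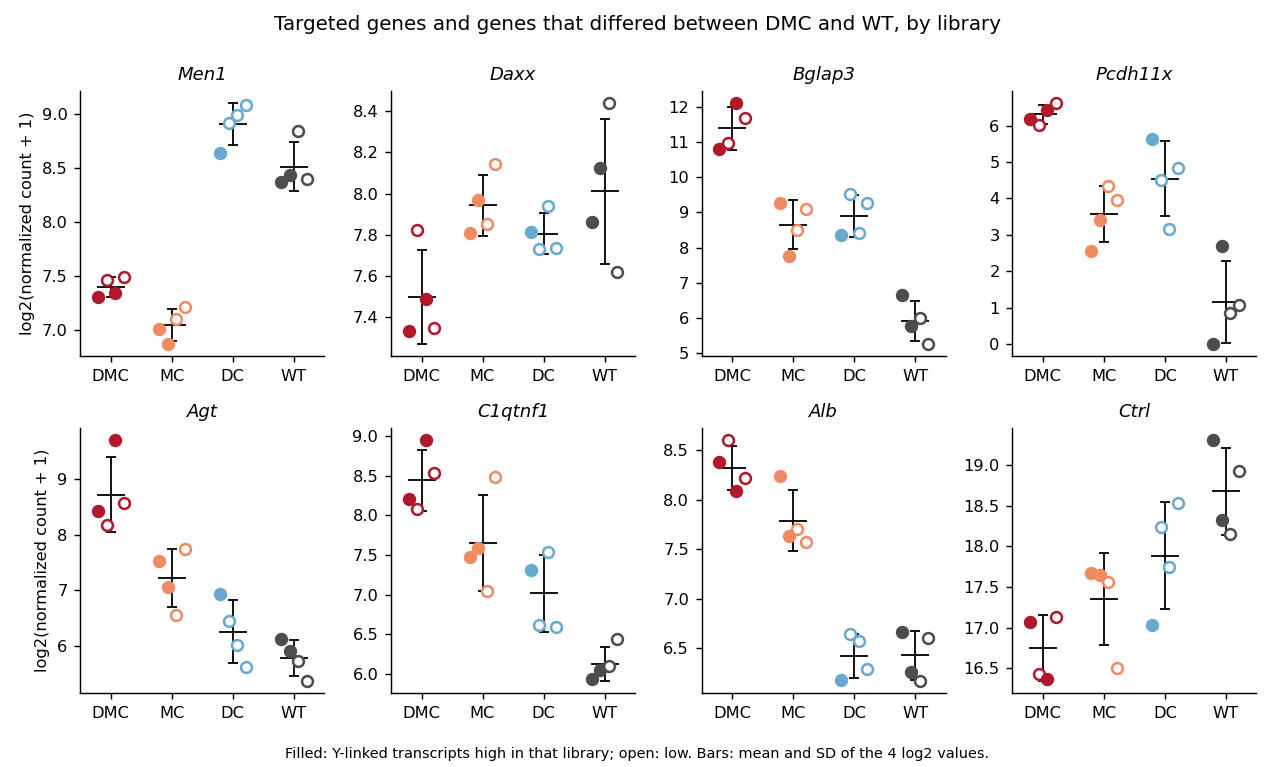
Panels give the log2(normalized count + 1) of each library for Men1, Daxx, 5 genes called under all 32 settings and Ctrl, with DMC, MC, DC and WT from left to right. Filled points are libraries with high Y-linked transcripts, open points those with low, and the bars are the mean and SD of the 4 log2 values; Bglap3, Pcdh11x, Agt, C1qtnf1 and Alb in DMC lie above all 4 WT points, and Men1 and Ctrl below.

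In the panels by library, DMC points of Bglap3 and Agt also lie above all MC and DC points, and Men1 in DMC and MC lies below all DC and WT points.

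Transcripts of stomach glands, 7 of 21 tested, rose in DMC. Of 32 listed genes 21 were tested, 7 were called higher and 0 lower by limma (against 0.591% and 0.197% of all genes), and edgeR called 8 higher and 0 lower. Their median log2 difference was 1.42. DMC libraries were all above WT in 10 of 21 (5.19% of all genes), and 17 of 21 were positive (47.3% of all genes). Cym (ENSMUSG00000046213.9, chr3:107211293-107221732), the gene of chymosin, the milk-clotting protease of the newborn stomach, had 816, 4329, 427 and 1790.1 normalized counts in DMC, against 3.54, 0, 0 and 8.78 in WT. WT replicates 2 and 3 had 0 reads, and its log2 difference of 8.96 ± 0.88 was the largest of the comparison (adjusted p = 0.000118, limma). Pgc encodes pepsinogen C, a protease precursor of chief cells. It stood at 879.8, 8974, 1002 and 10444 normalized counts in DMC, against 150.3, 46.1, 96.3 and 143 in WT, with the lowest DMC library several times above the highest WT library (4.92 ± 0.81, adjusted p = 0.0108, limma). Gif, intrinsic factor, which carries cobalamin and is made by chief cells in mice, had 539, 3567, 456 and 4790.0 normalized counts in DMC, against 42.4, 59.7, 22.8 and 101 in WT. Gif had a log2 difference of 4.83 ± 0.85 (adjusted p = 0.0184, limma). Gkn3, a gastrokine of mucous neck cells, was at 627, 7697, 733 and 7444 normalized counts in DMC, against 51.3, 38.9, 46.5 and 73.6 in WT. For Pgc, Gif and Gkn3 the 2 Y-low DMC libraries, replicates 2 and 4, were the highest by far, and replicates 1 and 3 were also above every WT library. Gkn3 differed by 5.44 ± 0.99 (adjusted p = 0.0203, limma).

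In the other stomach gland calls DMC replicates 2 and 4 were again the highest. Pga5, pepsinogen A, stood at 352, 3322, 389 and 2049 normalized counts in DMC, against 126, 54.2, 83.2 and 122 in WT. Pga5 differed from WT by 3.42 ± 0.69 (adjusted p = 0.0322, limma). Slc9a4, a sodium-proton exchanger of parietal cells, was at 35.5, 272, 33.96 and 161 normalized counts in DMC, against 7.07, 2.71, 4.90 and 9.88 in WT. Slc9a4 differed by 3.71 ± 0.73 (adjusted p = 0.0286, limma). Vsig1, a junctional protein of gastric epithelium, had 17.3, 85.9, 14.4 and 90.5 normalized counts in DMC, against 5.30, 2.71, 2.45 and 0 in WT. Vsig1 had a log2 difference of 3.69 ± 0.70 (adjusted p = 0.0247, limma). A4gnt, which glycosylates the mucin of gastric glands, is not on the list and was chosen after its values were seen; it was at 13.7, 218, 16.98 and 139 normalized counts in DMC, against 1.77, 1.81, 4.08 and 1.10 in WT. A4gnt differed from WT by 4.14 ± 0.90 (adjusted p = 0.0445, limma). Muc6, that mucin, had 122, 1828, 157 and 508 normalized counts in DMC, against 24.8, 19.9, 33.5 and 39.5 in WT and did not pass (adjusted p = 0.0986), and the water channel Aqp5 missed narrowly (log2 1.39, adjusted p = 0.0513). Tff2, the most abundant listed gene, averaged 18272 ± 3749.7 in DMC and 22580 ± 10122 in WT and was not called. Atp4a, the proton pump subunit of parietal cells, was at 29.1, 51.4, 15.7 and 98.7 in DMC, against 26.5, 15.4, 2.45 and 5.49 in WT (adjusted p = 0.197), and the part of any stomach tissue in these differences was not tested. The pit cell markers Gkn1, Gkn2, Muc5ac and Tff1, and Atp4b, were not analysed here. The mean log2 level of the list was 7.05, 8.56, 7.28 and 8.29 in DMC, against 5.70, 5.32, 5.31 and 5.55 in WT.

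These calls rested partly on DMC replicates 2 and 4. Gkn3 was lost without DMC replicate 2 or 4 or WT replicate 3 or 4 (adjusted p = 0.0512 to 0.0857). Gif was lost without DMC replicate 2 or 4 or WT replicate 3 (adjusted p = 0.0567 to 0.0768), and Pgc without DMC replicate 4 (adjusted p = 0.0531). Slc9a4 was lost without DMC replicate 2 or 4 or WT replicate 2, 3 or 4 (adjusted p = 0.0528 to 0.119). Vsig1 was lost without DMC replicate 2 or 4 or WT replicate 3 or 4 (adjusted p = 0.0567 to 0.112). Pga5 and A4gnt lost their calls on more libraries: Pga5 without DMC replicate 2 or 4 or WT replicate 1, 2, 3 or 4 (adjusted p = 0.0505 to 0.133), and A4gnt without DMC replicate 2 or 4 or WT replicate 1, 2, 3 or 4 (adjusted p = 0.0787 to 0.182). Cym stayed called throughout. Within the Y-low libraries the log2 differences of Cym, Gkn3, Pgc and Gif were 9.80, 6.99, 6.36 and 6.39, and within the Y-high libraries 8.12, 3.89, 3.48 and 3.27.

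Start windows of the stomach gland genes with the largest differences follow, since these members moved together; sequences are RefSeq's (GRCm38.p6), from 250 bases before to 50 after the start, with any TATAAA in capitals.
Cym: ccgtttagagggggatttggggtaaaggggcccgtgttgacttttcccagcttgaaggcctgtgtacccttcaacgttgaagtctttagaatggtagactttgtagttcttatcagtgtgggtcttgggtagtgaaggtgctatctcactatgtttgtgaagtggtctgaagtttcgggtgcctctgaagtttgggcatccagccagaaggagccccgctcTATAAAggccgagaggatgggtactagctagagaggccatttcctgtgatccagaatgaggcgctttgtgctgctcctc
Pgc: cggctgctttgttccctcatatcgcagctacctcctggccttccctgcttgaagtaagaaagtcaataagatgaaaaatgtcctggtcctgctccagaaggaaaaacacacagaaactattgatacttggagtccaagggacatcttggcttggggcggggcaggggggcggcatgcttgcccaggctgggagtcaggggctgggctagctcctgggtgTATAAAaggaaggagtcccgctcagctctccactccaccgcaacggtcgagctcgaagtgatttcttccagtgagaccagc
Gif: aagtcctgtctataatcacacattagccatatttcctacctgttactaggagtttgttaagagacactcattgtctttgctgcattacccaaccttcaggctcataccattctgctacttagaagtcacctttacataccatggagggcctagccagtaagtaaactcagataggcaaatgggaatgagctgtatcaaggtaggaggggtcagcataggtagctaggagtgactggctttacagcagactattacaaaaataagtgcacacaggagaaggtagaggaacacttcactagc
Gkn3: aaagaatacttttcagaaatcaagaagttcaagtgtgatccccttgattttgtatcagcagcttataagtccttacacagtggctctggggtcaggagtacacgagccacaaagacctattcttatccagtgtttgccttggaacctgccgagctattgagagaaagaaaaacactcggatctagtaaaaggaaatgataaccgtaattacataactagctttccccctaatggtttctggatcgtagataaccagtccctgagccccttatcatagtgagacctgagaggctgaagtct
Positions are chr3:107221683-107221982 (minus strand) for Cym, chr17:47726592-47726891 (plus) for Pgc, chr19:11747309-11747608 (plus) for Gif, which RefSeq calls Cblif, and chr6:87388886-87389185 (minus) for Gkn3. TATAAA begins 29 bases before the start of Cym and 31 before that of Pgc, and the letters are not in the windows of Gif and Gkn3.

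**Figure D3:**
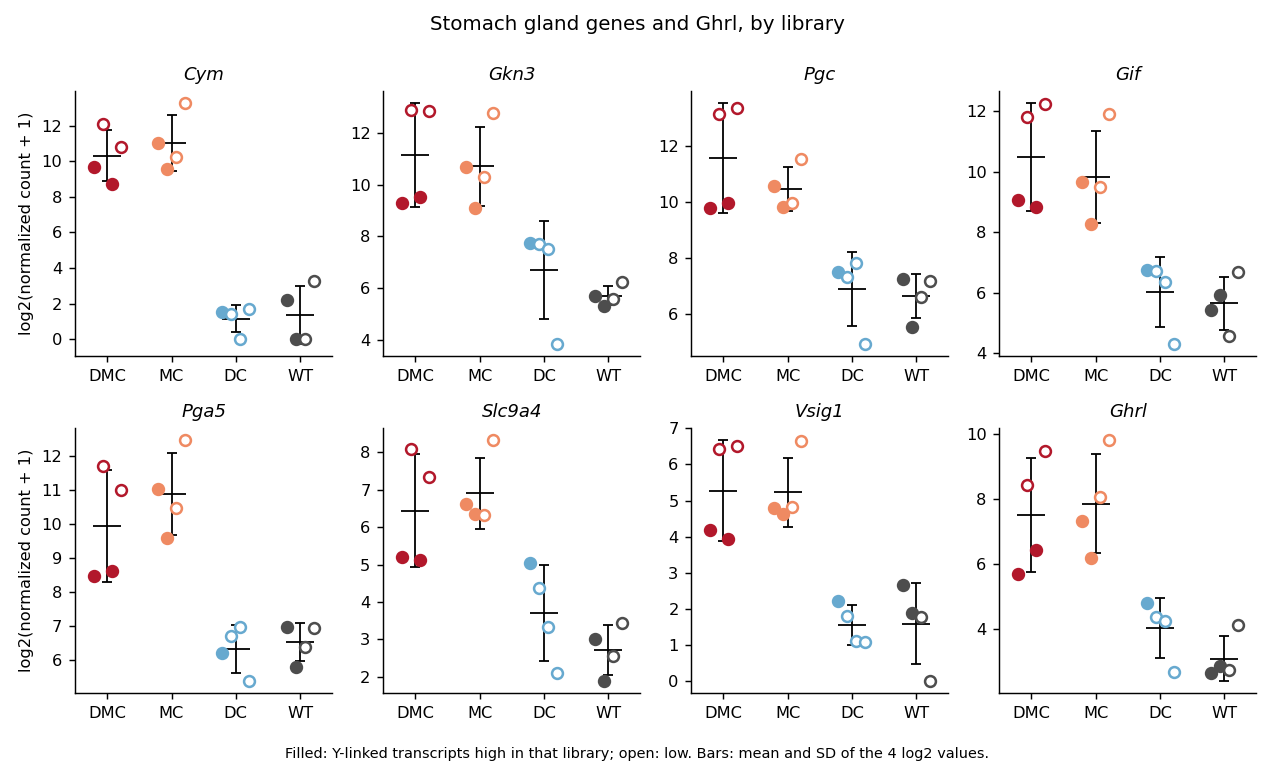
Panels give the log2(normalized count + 1) of each library for 7 stomach gland genes and Ghrl, with DMC, MC, DC and WT from left to right, points filled where Y-linked transcripts were high and bars for the mean and SD of the 4 log2 values. All DMC points lie above all WT points in each panel, and the open DMC points of Gkn3, Pgc and Gif lie above the filled ones.

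The panels of stomach gland genes also show MC libraries at levels like those of DMC and DC libraries at levels like those of WT for Cym.

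Transcripts of 3 genes of the hepatocyte list, Alb, Serpina5 and F2, rose in DMC. Of 13 hepatocyte genes tested, 3 were called higher and 0 lower by limma and by edgeR (in limma 0.591% and 0.197% of all genes), and 10 were higher at an unadjusted p under 0.05 (8.43% of all genes). Of the 13, 12 were positive, against 47.3% of all genes, and their median was 1.51. Alb (chr5:90460897-90476602), serum albumin, had 332, 388, 272 and 297 normalized counts in DMC, against 101, 75.9, 70.98 and 96.6 in WT. The lowest DMC library was well above the highest WT library (1.90 ± 0.18, adjusted p = 0.000116, limma). Serpina5, the protein C inhibitor, was at 136, 83.2, 28.7 and 177 normalized counts in DMC, against 5.30, 9.95, 1.63 and 7.69 in WT. Serpina5 differed by 3.81 ± 0.63 (adjusted p = 0.0114, limma), a call that ended without DMC replicate 4 (adjusted p = 0.0626). F2, prothrombin, stood at 110.2, 94.1, 248 and 99.6 normalized counts in DMC, against 63.6, 57.9, 38.3 and 51.6 in WT, highest in DMC replicate 3 (1.27 ± 0.27, adjusted p = 0.0400, limma); its call ended without DMC replicate 1, 2 or 4 or WT replicate 2, 3 or 4 (adjusted p = 0.0655 to 0.114). Transthyretin (Ttr), a thyroxine carrier made by both liver and islets, was the most abundant listed gene, with 1005, 1524, 1119.5 and 2639 normalized counts in DMC, against 585, 878, 595 and 985 in WT, and was not called (adjusted p = 0.171). Apoa1, a main liver apolipoprotein, lay below the filter. Serpina7, thyroxine-binding globulin, had 67.4, 66.3, 169.8 and 88.6 normalized counts in DMC, against 14.1, 54.2, 3.26 and 12.1 in WT. Serpina7 had a log2 difference of 2.64 ± 0.57 (adjusted p = 0.0429, limma), with 1 WT library close under the lowest DMC value, and was lost without DMC replicate 1, 2, 3 or 4 or WT replicate 1, 3 or 4 (adjusted p = 0.0778 to 0.133).

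Azgp1, a lipid-mobilising plasma glycoprotein chosen after its values were seen, stood at 168, 197, 263 and 196 normalized counts in DMC, against 47.7, 26.2, 28.6 and 59.3 in WT. Azgp1 differed from WT by 2.38 ± 0.36 (adjusted p = 0.00731, limma). Wfdc15b, a protease-inhibitor domain protein also chosen later, had 76.5, 73.1, 109.7 and 149.9 normalized counts in DMC, against 15.9, 35.3, 19.6 and 17.6 in WT. Wfdc15b differed by 2.17 ± 0.29 (adjusted p = 0.00216, limma). All 4 DMC libraries were above WT in both, and neither call depended on 1 DMC or WT library. Olfm4, a secreted glycoprotein of intestinal crypts, was the 1 of 3 tested intestinal genes called: it was at 92.9, 125, 67.9 and 240.3 normalized counts in DMC, against 8.84, 16.3, 6.53 and 9.88 in WT. Olfm4 had a log2 difference of 3.45 ± 0.59 (adjusted p = 0.0153, limma), and its call ended without DMC replicate 4 or WT replicate 3 (adjusted p = 0.0516 to 0.0698). Tro, trophinin, an adhesion protein, had 71.9, 114, 56.2 and 117 normalized counts in DMC, against 10.6, 14.5, 8.16 and 20.9 in WT. Tro differed from WT by 2.65 ± 0.39 (adjusted p = 0.00587, limma). Cobl, an actin nucleator, averaged 487 ± 142 in DMC and 133 ± 52.9 in WT. Cobl differed by 1.90 ± 0.31 (adjusted p = 0.0108, limma). Cyp2j5, a cytochrome P450 of fatty acid oxidation, averaged 74.7 ± 16.7 in DMC and 19.4 ± 5.57 in WT (1.90 ± 0.29, adjusted p = 0.00849, limma; SD, n = 4 each). Tmem54, a membrane protein, averaged 133 ± 67.4 in DMC and 21.2 ± 16.02 in WT (2.71 ± 0.56, adjusted p = 0.0360), and the vomeronasal receptor gene Vmn1r43 153 ± 125 in DMC and 19.6 ± 12.2 in WT (2.85 ± 0.60, adjusted p = 0.0400). Tmem54 was lost without DMC replicate 1, 2, 3 or 4 or WT replicate 2, 3 or 4 (adjusted p = 0.0581 to 0.136). Vmn1r43 was lost without DMC replicate 1, 2, 3 or 4 or WT replicate 2, 3 or 4 (adjusted p = 0.0511 to 0.104).

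Endocrine transcripts were mostly higher in DMC on average, but among them only ghrelin passed. Ghrl, the hunger hormone of the stomach and of a rare islet cell, had 51, 345, 86.2 and 704 normalized counts in DMC, against 5.30, 6.33, 5.71 and 16.5 in WT. The DMC libraries, again highest in replicates 2 and 4, did not overlap WT (4.41 ± 0.81, adjusted p = 0.0211, limma), and the call ended without DMC replicate 2 or 4 or WT replicate 3 (adjusted p = 0.0567 to 0.0833). Insulin transcripts were not called: Ins2 stood at 16938, 18027, 13502 and 51193 normalized counts in DMC, against 7710.0, 15863, 3196 and 10706 in WT (log2 1.41, adjusted p = 0.385), and Ins1, its close paralog, had a log2 difference of 1.54 (adjusted p = 0.363). Glucagon (Gcg) was at 9887, 29257, 3248 and 35338 normalized counts in DMC, against 5450.5, 13891, 3282 and 10104 in WT (adjusted p = 0.697). In Ins2 and Gcg the groups overlapped and DMC replicate 4 was the highest library. The median over 8 hormones was 1.26, and 0.84 without DMC replicate 4 and 0.79 without WT replicate 3.

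Of 34 other islet endocrine genes, 33 were positive (47.3% of all genes) and 24 were higher at an unadjusted p under 0.05 (8.43% of all genes), while limma and edgeR called 0 in either direction and DESeq2 9 higher. Their median was 1.54, with 2.51 in Y-low and 0.63 in Y-high libraries. Secretogranin 2 (Scg2), a granule protein, had 4258, 5127, 2846 and 11470 normalized counts in DMC, against 847, 1875, 297 and 1231 in WT, without overlap (adjusted p = 0.109). The prohormone convertase Pcsk1 was at 541, 724, 899 and 1215 normalized counts in DMC, against 302, 317, 191 and 350.3 in WT (adjusted p = 0.0600), the nearest of the list to the threshold. Chromogranin A (Chga) overlapped, with 2025, 2417, 1400.3 and 5782 in DMC, against 1094, 2654, 485 and 1913 in WT. Th, tyrosine hydroxylase, the first enzyme of catecholamine synthesis, was called: it had 66.5, 91.3, 31.4 and 132 normalized counts in DMC, against 5.30, 18.99, 4.90 and 8.78 in WT. Th had a log2 difference of 2.96 ± 0.57 (adjusted p = 0.0267, limma). Its call ended without DMC replicate 1, 2 or 4 or WT replicate 1, 3 or 4 (adjusted p = 0.0635 to 0.117). It was the 1 call among 7 catecholamine and amine genes.

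A further set of genes called higher was chosen after the values were seen. Dpp6, an auxiliary subunit of potassium channels, stood at 71.9, 88.6, 33.96 and 135 normalized counts in DMC, against 12.4, 12.7, 17.9 and 14.3 in WT. Dpp6 differed from WT by 2.30 ± 0.38 (adjusted p = 0.0108, limma) and was lost without DMC replicate 4 (adjusted p = 0.0531). Neto1, an auxiliary subunit of glutamate receptors, had 26.4, 35.2, 15.7 and 30.2 normalized counts in DMC, against 3.54, 4.52, 2.45 and 0 in WT. Neto1 differed by 3.14 ± 0.54 (adjusted p = 0.0153, limma) and was lost without DMC replicate 2 or 4 (adjusted p = 0.0655 to 0.0698). Ptprs, a receptor phosphatase, averaged 1342 ± 76.4 in DMC and 667 ± 137 in WT (1.03 ± 0.19, adjusted p = 0.0211, limma; SD, n = 4 each) and was lost without DMC replicate 2 or 4 or WT replicate 4 (adjusted p = 0.0533 to 0.0833). In Dpp6 and Ptprs every DMC library was above the WT range. Pax1, a transcription factor of the developing thymus and skeleton, was at 20.04, 20.3, 7.84 and 12.8 normalized counts in DMC, against 0, 0.904, 1.63 and 2.20 in WT (adjusted p = 0.0203, limma), low in both groups and lost without DMC replicate 1, 2 or 4 (adjusted p = 0.0664 to 0.0842). For Cyp4a12a, one of a family of near-identical cytochrome P450 genes, DMC had 25.5, 15.6, 20.9 and 11.9 and all 4 WT libraries had 0 reads.

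Gli1, a target of Hedgehog signalling, rose in DMC. The median over 17 Hedgehog genes tested was 0.34. Gli1, the transcription factor that Hedgehog signals induce, had 60.1, 73.1, 61.4 and 118 normalized counts in DMC, against 14.1, 15.4, 14.7 and 23.1 in WT; all DMC libraries were above WT (2.12 ± 0.33, adjusted p = 0.00849, limma). Ptch1, a Hedgehog receptor, overlapped between groups, with 255, 384, 357 and 344 in DMC, against 205, 259, 275 and 348 in WT. Of 17 Wnt feedback genes and antagonists 0 were called by limma or edgeR and 2 higher by DESeq2, with 6 higher at an unadjusted p under 0.05 (8.43% of all genes) and a median of 0.62 (0.96 without DMC replicate 3 and 0.36 without DMC replicate 4); Lgr5, a stem cell receptor, missed narrowly (75.6, 65.6, 67.9 and 94.1 in DMC, against 5.30, 13.6, 5.71 and 20.9 in WT; adjusted p = 0.0539).

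All 11 mesothelial genes were positive, against 47.3% of all genes, with a median of 0.87. At an unadjusted p under 0.05, 8 were higher (8.43% of all genes), but limma, edgeR and DESeq2 called 0. Msln, mesothelin, was at 166, 236, 189 and 148 normalized counts in DMC, against 70.7, 108, 55.5 and 104 in WT (adjusted p = 0.272). All 9 tested tuft cell genes were positive too (median 0.76, 4 higher at an unadjusted p under 0.05, against the same 8.43%), with 0 called by limma or edgeR and 1 by DESeq2; Pou2f3, the defining factor of tuft cells, lay below the filter, and the most abundant, Dclk1, had 210.4, 468, 163 and 217 normalized counts in DMC, against 68.9, 156, 189 and 166 in WT. Of 18 fibroblast genes Gas6, a ligand of TAM receptor kinases, was the 1 call, at 2789, 2827, 2321 and 2749 normalized counts in DMC, against 1611, 1381, 1032 and 1339.6 in WT. Gas6 differed from WT by 1.01 ± 0.21 (adjusted p = 0.0348, limma). Of 36 collagen and matrix genes Thbs3 was called higher and Thbs4 lower, both secreted thrombospondins: Thbs3 averaged 295 ± 66.8 in DMC and 157 ± 14.6 in WT. Thbs3 differed by 0.89 ± 0.19 (adjusted p = 0.0445, limma). Thbs4 averaged 29.9 ± 16.6 in DMC and 125 ± 61.2 in WT (-2.10 ± 0.45, adjusted p = 0.0445, limma; SD, n = 4 each). Gas6 was lost without DMC replicate 1, 2 or 4 or WT replicate 2, 3 or 4 (adjusted p = 0.0679 to 0.124). Thbs3 was lost without DMC replicate 1, 2 or 4 or WT replicate 1, 2, 3 or 4 (adjusted p = 0.0787 to 0.169). Thbs4 was lost without DMC replicate 2, 3 or 4 or WT replicate 1, 2, 3 or 4 (adjusted p = 0.0567 to 0.127).

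Of 14 claudin genes tested, Cldn2 was called higher and Cldn6, described with the falls, lower. Cldn2, which forms cation pores in tight junctions, was at 301, 622, 248 and 479 normalized counts in DMC, against 161, 114, 117 and 79.1 in WT. Cldn2 had a log2 difference of 1.75 ± 0.37 (adjusted p = 0.0382, limma), a call lost without DMC replicate 1, 2 or 4 or WT replicate 2, 3 or 4 (adjusted p = 0.0664 to 0.144). Ajuba, a LIM protein that restrains the Hippo kinases, had 231, 285, 158 and 238 normalized counts in DMC, against 139.7, 113, 85.7 and 82.4 in WT. Ajuba differed from WT by 1.11 ± 0.20 (adjusted p = 0.0199, limma), the 1 call among 22 Hippo genes. That call was lost without DMC replicate 1, 2 or 4 or WT replicate 3 or 4 (adjusted p = 0.0545 to 0.0826). Mest, a paternally expressed imprinted gene, stood at 314, 386, 298 and 715 normalized counts in DMC, against 164, 140.1, 162 and 164 in WT. Mest differed by 1.35 ± 0.29 (adjusted p = 0.0417, limma), the 1 call among 23 imprinted genes. That call was lost without DMC replicate 1, 2 or 4 or WT replicate 1, 2, 3 or 4 (adjusted p = 0.0655 to 0.136). In all 3 the DMC range began above the WT range.

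Among genes lower in DMC, the chymotrypsin-like protease Ctrl was the most abundant. Ctrl (chr8:105932003-105933862) stood at 137109, 88245, 84572 and 143909 normalized counts in DMC, against 647552, 327963, 290203 and 500441 in WT. All 4 DMC libraries were under all of WT. Ctrl differed by -1.93 ± 0.41 (adjusted p = 0.0400, limma), and the call ended without any one of the 8 DMC and WT libraries (adjusted p = 0.0584 to 0.118). It was the 1 call among 34 acinar enzyme genes, of which 25 were negative, where 47.3% of all genes were positive. The median of the 34 was -0.33 (-0.15 when DMC replicate 2 was dropped, -0.16 and -0.22 when WT replicate 1 or 4 was). Cela1, an elastase, was also below WT in every DMC library, at 579347, 283837, 556917 and 443948, against 1504291, 729286, 741646 and 1313972 in WT, and was not called (adjusted p = 0.351). Ctrc, chymotrypsin C, was not called (adjusted p = 0.409), with 59648, 41023, 95318 and 53465 in DMC, against 5136, 3600.2, 2869 and 189195 in WT, where replicate 4 alone was high. Trypsinogen and amylase genes share near-identical copies, so Prss1 (log2 1.70, adjusted p = 0.219) and Amy2a1 (-0.72, 0.341) are uncertain. None of 11 acinar transcription factors was called by limma, edgeR or DESeq2 (median -0.34, 1 higher and 2 lower at an unadjusted p under 0.05; -0.16 without DMC replicate 1 or WT replicate 4 and -0.53 without DMC replicate 3). Rbpjl, an acinar partner of Ptf1a, averaged 5589.9 ± 2011 in DMC and 8077 ± 1411 in WT.

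Cldn6, Parm1, Rftn2 and Zc3h12b fell in DMC at each setting that left out 1 DMC or WT library. Cldn6, a claudin of embryonic epithelia, fell to 29.1, 27.1, 18.3 and 14.6 normalized counts in DMC, against 91.9, 164, 54.7 and 85.6 in WT. Cldn6 had a log2 difference of -2.04 ± 0.30 (adjusted p = 0.00592, limma). Parm1, a mucin-like membrane protein, was at 386, 358, 452 and 406 in DMC, against 979, 706, 982 and 1078 in WT. Parm1 differed from WT by -1.21 ± 0.17 (adjusted p = 0.00583, limma). Rftn2, a raft protein, had 53.7, 48.7, 71.8 and 98.7 in DMC, against 202, 159, 153 and 215 in WT. Rftn2 differed by -1.44 ± 0.24 (adjusted p = 0.0108, limma). Zc3h12b, an X-linked zinc finger gene, had 44.6, 46.01, 28.7 and 46.6 in DMC, against 129, 104, 80.8 and 136 in WT. Zc3h12b had a log2 difference of -1.41 ± 0.22 (adjusted p = 0.00952, limma). The DMC and WT ranges stood apart in each of these 4 genes. Slc7a3, a cationic amino acid transporter, was the 1 call among 24 one-carbon and amino acid genes. Of these 24, 20 were negative, where 47.3% of all genes were positive, and the median was -0.39 (-0.23 without DMC replicate 2). Slc7a3 had 61.9, 59.5, 137 and 39.3 in DMC, against 267, 198, 159 and 269 in WT. Slc7a3 differed from WT by -1.69 ± 0.32 (adjusted p = 0.0245, limma), a call lost without DMC replicate 1, 2 or 4 or WT replicate 1 or 4 (adjusted p = 0.0603 to 0.101).

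Lower levels were also called for Pde8b, a cAMP phosphodiesterase (mean 80.6 ± 26.6 in DMC and 258 ± 89.6 in WT; -1.65 ± 0.29, adjusted p = 0.0154), for Lrrc7, a synaptic scaffold (247 ± 59.7 in DMC and 575 ± 73.3 in WT; -1.24 ± 0.22, adjusted p = 0.0187), and for Serpini1, neuroserpin (347 ± 39.7 in DMC and 769 ± 200.2 in WT; -1.12 ± 0.19, adjusted p = 0.0154), each lost without DMC replicate 4 or WT replicate 4, with adjusted p from limma of 0.0528 to 0.0698. Eci3, an isomerase of fatty acid oxidation, averaged 44.8 ± 14.5 in DMC and 135 ± 36.6 in WT. Eci3 differed by -1.58 ± 0.32 (adjusted p = 0.0307, limma), a call lost without DMC replicate 2, 3 or 4 or WT replicate 1, 2, 3 or 4 (adjusted p = 0.0511 to 0.126). Nat8, an acetyltransferase, averaged 32.1 ± 11.5 in DMC and 111 ± 56.2 in WT. Nat8 had a log2 difference of -1.71 ± 0.38 (adjusted p = 0.0478, limma), a call lost without any one of the 8 DMC and WT libraries (adjusted p = 0.0534 to 0.117). Pbx3, a homeodomain partner of Hox proteins, was at 209, 173, 302 and 186 in DMC, against 385, 362, 368 and 489.7 in WT. Pbx3 differed from WT by -0.91 ± 0.19 (adjusted p = 0.0344, limma), the 1 call among 12 Hox and Meis genes. Its call was lost without DMC replicate 1, 2 or 4 or WT replicate 1, 2, 3 or 4 (adjusted p = 0.0565 to 0.133). None of these falls overlapped between groups.

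Leukocyte, interferon, duct and stress lists gave no calls in limma or edgeR. Over 15 genes of T and NK cells the median was -0.62, with 0 at an unadjusted p under 0.05 and 0 called by DESeq2. Dropping DMC replicate 2 gave -1.16, and dropping WT replicate 1 gave -1.60, replicate 2 -0.12, replicate 3 -0.07 and replicate 4 -0.93. For 13 B and plasma cell genes it was -1.08, with 0 at an unadjusted p under 0.05 and 0 called by DESeq2. Dropping DMC replicate 4 gave -0.32, and dropping WT replicate 1 gave -2.04, replicate 2 -0.57 and replicate 3 -0.38. Of 18 macrophage genes 17 were positive, against 47.3% of all genes, with a median of 0.59 (0.38 without WT replicate 1). At an unadjusted p under 0.05, 6 of the 18 were higher, against 8.43% of all genes. Interferon-stimulated genes were positive in 29 of 30, against 47.3% of all genes, with 0 at an unadjusted p under 0.05. Their median was 0.41. It was 0.01 or 0.70 when DMC replicate 2 or 3 was dropped, and -0.04 or 0.87 when WT replicate 1 or 3 was. The 22 duct and metaplasia genes had a median of 0.30 (0.14 without WT replicate 3), with Spp1, osteopontin, at 5218, 4947, 5357 and 7079 normalized counts in DMC, against 4947, 3522, 3049.7 and 2842 in WT (adjusted p = 0.115); its lowest DMC and highest WT libraries nearly touched, and it was called without WT replicate 1 (adjusted p = 0.0381). Unfolded protein response genes were negative in 24 of 28, where 47.3% of all genes were positive. Their median was -0.27, with 3 lower at an unadjusted p under 0.05, against 4.11% of all genes. Reg family genes, secreted lectin-like proteins of injured acini, had a median of 0.34 over 6 tested, -0.13 without DMC replicate 3, -0.25 without WT replicate 3 and 0.52 to 0.67 without DMC replicate 2 or WT replicate 1, 2 or 4.

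**Figure D4:**
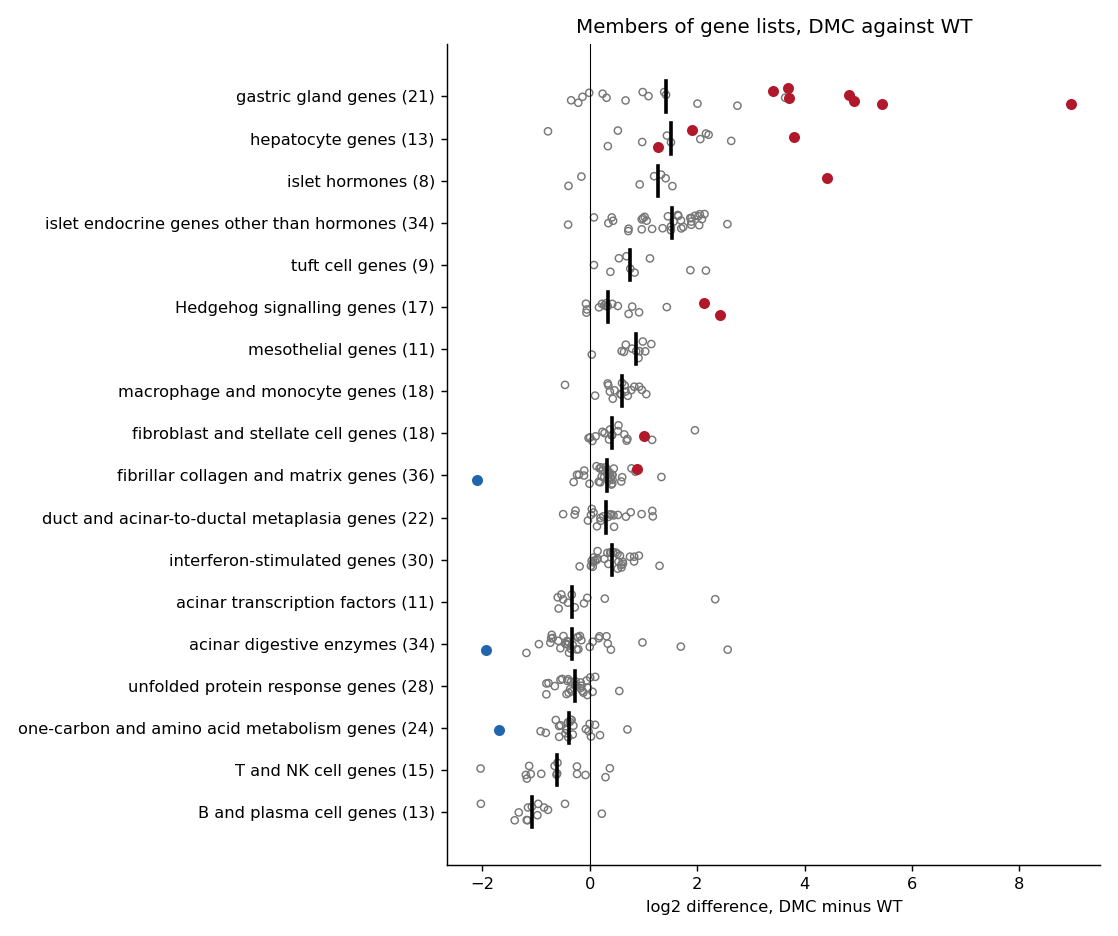
Rows are 18 gene lists with the number of members tested in brackets, and each point is a member's log2 difference, DMC minus WT, on the x axis; red points were called higher, blue called lower and open points not called, and the black bar is the list's median. Stomach gland members extend to 8.96, 33 of 34 islet endocrine genes lie right of 0 with no call, and the lymphoid lists lie mostly left of 0.

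The plot of gene lists sets calls beside uncalled members: 14 of 21 stomach gland genes and 10 of 13 hepatocyte genes were open points.

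The single losses were compared with the same 4 WT libraries, so values of DMC, MC and DC against WT share their controls and are given side by side without a test of likeness. MC minus WT had 111 calls (0.781%), 69 genes higher (0.485%) and 42 lower (0.295%), and DC minus WT 3 higher (0.0211%). Cym differed from WT by 8.96 in DMC, 9.67 in MC and -0.22 in DC; Pgc by 4.92 in DMC, 3.82 in MC and 0.26 in DC; and Gli1 by 2.12 in DMC, 2.14 in MC and 0.97 in DC. The median of stomach gland genes was 1.42 in DMC, 1.35 in MC and -0.02 in DC, and that of hepatocyte genes 1.51, 1.36 and -0.01. Ajuba was at 1.11 in DMC, -0.01 in MC and 1.50 in DC, and Neto1 at 3.14 in DMC, 0.14 in MC and 3.24 in DC; DMC minus MC narrowly missed in both, at 1.12 ± 0.20 for Ajuba and 2.99 ± 0.54 for Neto1 (adjusted p = 0.0580 each, limma).

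**Figure D5:**
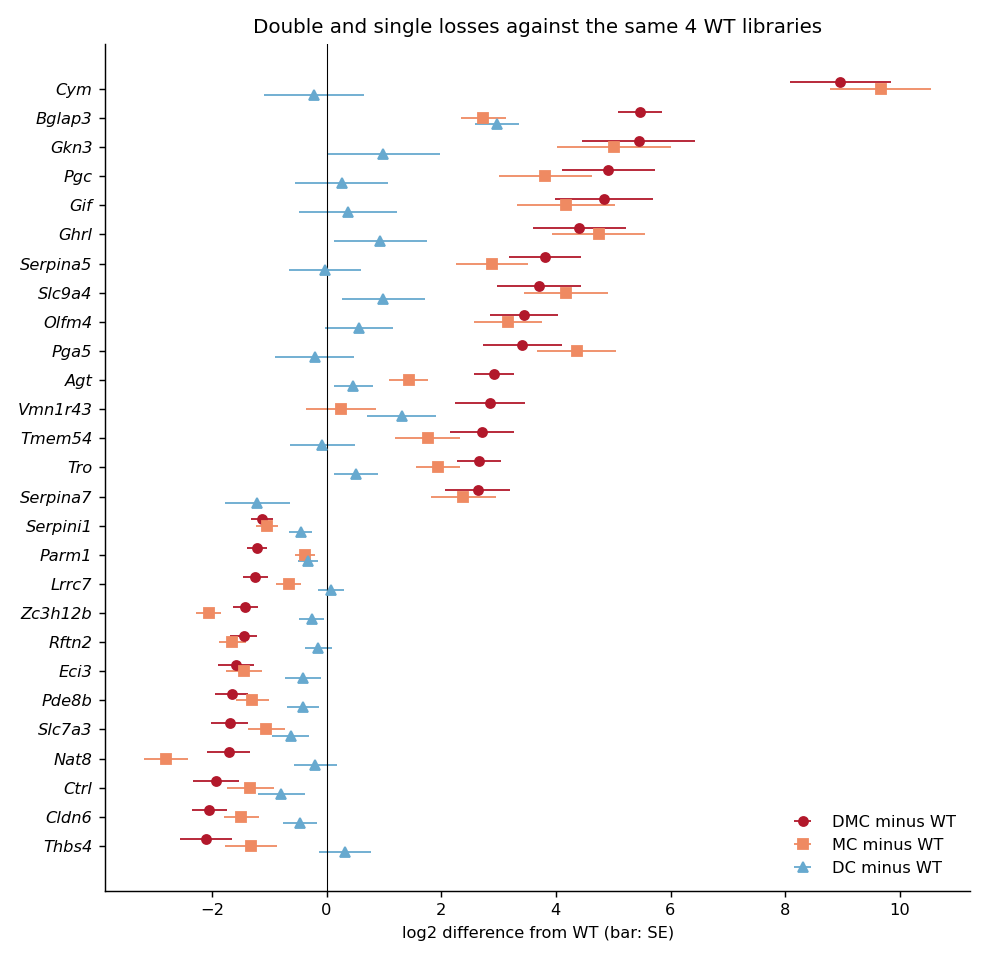
The 15 genes with the largest rises and the 12 with the largest falls among calls of DMC against WT are rows, and the x axis is the log2 difference from the same 4 WT libraries in DMC (circles), MC (squares) and DC (triangles), with bars for the SE. Bglap3 in DMC lies at 5.47, apart from 2.74 in MC and 2.97 in DC; rows were chosen on the DMC values.

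Tested directly, DMC differed from MC in 1 gene (0.00703% of those tested), Bglap3, higher in DMC, with 0 lower in limma and 338 lower (2.38%) among 792 genes (5.57%) at an unadjusted p under 0.05. Bglap3 had 1770.4, 2010.3, 4394 and 3289 normalized counts in DMC, 619, 214, 359 and 546 in MC and 326, 731, 338 and 619.6 in DC, so all DMC libraries were above both single losses. DMC exceeded MC by 2.73 ± 0.39 (adjusted p = 0.0441, limma), a call not recomputed with libraries left out, and DC by 2.50 ± 0.39 (adjusted p = 0.00989, limma). DMC minus DC had 76 calls (0.534%), 38 genes higher and 38 lower (0.267% each), among them 22 of the 84 genes called higher and 13 of the 28 called lower against WT. Cym stood 9.18 ± 0.88 above DC (adjusted p = 6.35e-05, limma), Alb 1.90 ± 0.18 (adjusted p = 6.35e-05), Agt 2.45 ± 0.34 (adjusted p = 0.00431), and Men1 differed from DC by -1.51 ± 0.13 (adjusted p = 3.51e-05). For Agt the difference from MC was 1.49 ± 0.34 and did not pass (adjusted p = 0.213), and for Parm1 it was -0.83 ± 0.17 (adjusted p = 0.139). The interaction of both losses asks whether DMC departs from the sum of the MC and DC log2 differences from WT. A sum of log2 differences is a product of fold changes, so a sum of the counts themselves was not tested. The interaction had 0 calls in limma and 1156 genes at an unadjusted p under 0.05 (8.13%). For Bglap3 it was -0.24 (adjusted p = 0.948, limma), beside log2 differences from WT of 5.47 in DMC, 2.74 in MC and 2.97 in DC.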

How the data were processed

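Total RNA of flash-frozen pancreas was sequenced with a strand-specific kit, per the labels' protocols. The authors deposited a table of 15156 genes by 16 libraries, whose values are counts divided by 1 size factor per library (a normalized signal). The submitters' processing notes name STAR 2.6.0b, GRCm38 and DESeq2; the read counter, its annotation and any gene filter are not stated there. All values (100%) came out as whole reads within 0.01 reads. Genes with at least 10 normalized counts in at least 4 libraries were tested (14220; 936 were not) with limma 3.58.1 (R 4.3.3) on log2(value + 1), with a mean-variance trend, 1 coefficient per genotype over all 16 libraries and Benjamini-Hochberg adjustment. Log2 differences understate changes of low genes because of the added 1. edgeR 4.0.16 and DESeq2 1.42.0 were run on the recovered reads. Alternatives covered the pseudocount, filter, scaling, tool, covariates and libraries left out. Scripts were tested on simulated data. Replicates differed by more than sampling noise (chi-square per degree of freedom 8.63 to 132.55). Positions are from GENCODE mouse release M21 (GRCm38, with 15152 IDs matched). Genes named were Men1, Daxx, the 15 largest rises and 12 largest falls called with a mean of at least 50 and no overlap, and list members by call or level; others are marked where used or listed as kept under all settings. The compared groups and the 38 lists were chosen with earlier results of these data known. 1 called list member is not reported here.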

Additional observations from a re-analysis of the deposited data

Results flagged for a closer look

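A library stood far from the other 3 of its group, by Dixon's test at the 95% level, in 14 of 146 groups. Each group was the 4 normalized counts of a named gene in DMC or in WT. Chance flags about 1 in 20 groups if values are normal and groups independent. The counts were not log-transformed and the genes share libraries, so 14 of 146 cannot be read against that rate. Of the 14, 8 were DMC groups and 6 WT groups, and DMC replicate 3 was the library in 6. Agt was highest in DMC replicate 3 at 823 normalized counts, where the other DMC libraries had 286 to 376. F2 was also highest there, at 248 against 94.1 to 110.2 in the other DMC libraries. Reg2 and Reg3b, secreted lectin-like proteins, reached 120085 and 60765 in DMC replicate 3, with 10941 to 24003 and 12200 to 20217 in the others. The same library was the lowest of DMC for Zc3h12b at 28.7 (others 44.6 to 46.6) and for Gas6 at 2321 (others 2749 to 2827). Insulin transcripts were highest in DMC replicate 4, with Ins2 at 51193 (others 13502 to 18027) and Ins1 at 47365 (others 11738 to 16604).

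Among WT libraries, Men1 was highest in replicate 3 at 459 (others 331 to 345), and Reg2 lowest there at 2222 (others 30463 to 33330). WT replicate 4 was highest for Ghrl at 16.5 (others 5.30 to 6.33) and Gli1 at 23.1 (others 14.1 to 15.4). Krt19, a duct keratin, was highest in WT replicate 1 at 1600.0 (others 223 to 453), and Mest lowest in WT replicate 2 at 140.1 (others 162 to 164).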

How the results depend on the processing

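All 112 genes called kept their direction in every setting that tested them (88 of them passed a filter of 50 normalized counts), while the number called moved. Because their DMC and WT libraries did not overlap, leaving out libraries or changing the pseudocount could not have reversed a direction. The main counts of 84 higher and 28 lower became 47 higher with that filter, 239 and 92 with DESeq2, 191 and 54 with library quality weights, and 12 and 4 with only DMC and WT libraries in the fit. Without both WT libraries rich in lymphoid transcripts they were 26 and 17, and without both DMC libraries highest for gastric transcripts 9 and 1, in fits with fewer samples. Leaving out 1 library gave 12 to 138 higher and 5 to 45 lower. With edgeR they were 72 and 30, and 96 of the 112 stayed called. Daxx passed with library quality weights (-0.62, adjusted p = 0.0432 in limma). The causes of these moves were not tested. With the replicate block 27 were higher and 9 lower, and 36 of the 112 stayed called; Men1 stayed called (-1.12) and Daxx did not pass (-0.51). Same-numbered DMC and WT libraries had correlations of -0.06, 0.32, -0.20 and 0.25 between their deviations from the group means. Differently numbered pairs ran from -0.47 to 0.52. Whether same-numbered samples shared more than a number was not tested. Low WT levels, at 0 reads in at least 1 WT library each, limit the precision of the differences of Cym, Pcdh11x, Vsig1, Neto1 and Sh2d7.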

Other observations

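Calls outside the lists described were chosen after their values were seen. Adamts9, a secreted matrix protease, was at 1226, 1202, 1025 and 917 normalized counts in DMC, against 2346, 1915, 2492 and 2307 in WT (-1.05 ± 0.17, adjusted p = 0.0107, limma), and its call ended without DMC replicate 4 (adjusted p = 0.0531). Sh2d7, an SH2 domain adaptor, was at 20.9, 106, 16.98 and 26.5 in DMC, against 1.77, 0, 0 and 1.10 in WT (adjusted p = 0.0187, limma), and its call ended without DMC replicate 2 or 4 or WT replicate 3 (adjusted p = 0.0567 to 0.0782). Obp2b, an odorant-binding lipocalin, stood near the limit of detection in DMC, at 2.73, 0, 1.31 and 2.74, against 8.84, 9.04, 22.03 and 13.2 in WT (adjusted p = 0.0463, limma), and its call ended without any one of the 8 DMC and WT libraries (adjusted p = 0.0640 to 0.133); its log2 difference from the same WT libraries was -2.49 in DMC, -3.25 in MC and 3.85 in DC. Of the 112 genes called, 13 lie on chromosome 6 and 10 on the X chromosome. The share of all tested genes on each chromosome was not computed, so these counts are a description only.

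Further lists had no call by limma or edgeR. Over all genes, 47.3% were positive and 8.43% were higher at an unadjusted p under 0.05. Of 26 cell cycle genes 22 were positive with 0 at an unadjusted p under 0.05, and of 16 endothelial genes 15 were positive with 1 higher at that level. Of 17 adipocyte genes 12 were positive, with 0 at that level, and their median of 0.20 became -0.28 without DMC replicate 1 and 0.68 without DMC replicate 4.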
